A study of Mus musculus with 6 samples.

Results

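The BCL-2 family is a set of proteins that decide whether the outer mitochondrial membrane is opened during apoptosis. Its transcripts were followed in mouse primary acinar cells, which make the digestive enzymes of the pancreas. Members were the rows whose gene symbol matched a list of 10: Bcl2, Bcl2l1, Mcl1, Bax, Bak1, Bid, Bad, Bcl2l11, Bbc3 and Pmaip1. Each symbol was found on 1 row, and all 10 passed the filter on low counts, among 13132 genes tested of 23282 rows. The libraries were 3 controls of wild-type genotype and 3 of a conditional knock-out (cKO, genotype ERRgamma -/-) of the orphan nuclear receptor ERR gamma, all of strain C57BL/6J. All 6 cell preparations were kept in Waymouth's medium with serum, trypsin inhibitor, antibiotics and epidermal growth factor, a survival signal that both groups therefore shared. The sources used here do not give the promoter that drove the deletion, the part of the gene deleted, the age and sex of the animals or the time in culture. Nothing states that the 3 libraries of a group came from separate animals, so p-values measure only the spread between libraries, and that spread may be technical.

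Proteins of the family meet at mitochondria through a short helix, the BH3 domain. The protective members BCL-2 (Bcl2), BCL-XL (Bcl2l1) and MCL-1 (Mcl1) hold the BH3 helix of the killing members in a groove and so keep them inactive. BAX and BAK (Bax, Bak1) are the pore formers, which release cytochrome c once active. The BH3-only proteins BID, BAD, BIM (Bcl2l11), PUMA (Bbc3) and NOXA (Pmaip1) sense damage, lost growth factor or stress of the endoplasmic reticulum, and either occupy the protective proteins or activate the pore formers. NOXA binds mainly MCL-1, BAD binds BCL-2 and BCL-XL, and BIM and PUMA bind all of them. In the exocrine pancreas the family is studied for its part in acinar cell death during pancreatitis. A transcript count says nothing of protein level, cleavage of BID, phosphorylation of BAD or place in the cell.

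Promoters are shown for Bax and Bcl2l11, the called members with a match to a searched motif. Each is the 250 bases before a start of transcription in RefSeq on GRCm38.p6, 5′ to 3′ on the gene's strand, with the match in capitals. The Bax promoter (chr7:45466899-45467148, minus strand) has a p53 half-site in capitals. The Bcl2l11 promoter shown (chr2:128125788-128126037, plus strand) has a FOXO site (GTAAACA) in capitals. The other Bcl2l11 window searched (chr2:128127325-128127574, plus strand) had no match and is not shown.
Bax: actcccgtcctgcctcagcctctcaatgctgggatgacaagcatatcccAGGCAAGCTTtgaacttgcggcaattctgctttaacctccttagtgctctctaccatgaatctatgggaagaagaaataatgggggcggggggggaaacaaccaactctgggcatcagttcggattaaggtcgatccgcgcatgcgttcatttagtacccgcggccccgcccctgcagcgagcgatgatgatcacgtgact
Bcl2l11: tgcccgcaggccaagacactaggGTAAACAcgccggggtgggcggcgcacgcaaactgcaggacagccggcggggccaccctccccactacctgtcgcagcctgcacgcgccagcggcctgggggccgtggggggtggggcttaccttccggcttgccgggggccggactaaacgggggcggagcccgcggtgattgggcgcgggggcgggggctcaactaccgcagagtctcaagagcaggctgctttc
The search covered both strands of 15 such windows of 9 members, with none taken for Pmaip1. The p53 half-site was in 1 of these 15 windows and in 7.13% of 32851 windows of all genes. The FOXO site was in 2 of 15, the second in a promoter of Bbc3, and in 3.17% of all windows. The ERR response element TNAAGGTCA was in 0 of 15 and in 1.14% of all, the cAMP response element TGACGTCA in 0 of 15 and in 1.55%, and the AP-1 site TGANTCA in 0 of 15 and in 6.75%. These matches describe letters and do not show binding.

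Each transcript was read as 1 tag close to its 3' end, so a count stands for transcripts and is not divided by length. Library totals were 23.0 M to 25.2 M counts in control and 15.2 M to 17.0 M in cKO (M, mega). The 10 members together had 685, 800 and 744 counts in control replicates 1, 2 and 3, and 8779, 4096 and 8541 in cKO replicates 1, 2 and 3. The 5 acinar enzyme genes Cpa1, Cela1, Ctrb1, Pnlip and Cel alone took 14.1% to 15.2% of control counts, and 4.45%, 13.1% and 6.64% of counts in cKO replicates 1, 2 and 3. Levels are given as counts per M counts (CPM) of the effective library size from TMM, a scaling under which the bulk of genes shows no change. Effective sizes were 7.52 M to 8.49 M in control and 33.2 M to 60.0 M in cKO. On library totals the median gene lay at a log2 fold change of 3.36, against 0.10 on the TMM scale, and all 10 members were higher in cKO, as were 96.4% of tested genes. Esrrg, the targeted gene, had 0 counts in each control library and 0, 9 and 1 in cKO replicates 1, 2 and 3. With Esrrg undetected in every control library, a loss in cKO could not have been seen. A 3' tag can also lie outside the deleted part. Whether the libraries carry their stated genotypes thus cannot be judged from Esrrg.

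Relative to the bulk of genes, 4 of the 10 members rose in cKO and 0 fell in edgeR. At an unadjusted p under 0.05 the counts were also 4 and 0, as in DESeq2. Killing members among them were Pmaip1 (NOXA), Bcl2l11 (BIM) and Bax, and the protective one was Mcl1. The filter on low counts used library totals and asked for about 10 counts in 3 libraries. Pmaip1 and Bax, like Bid and Bbc3, had at least 1 control library below 10 counts. They passed the filter only with the cKO libraries, the group where their levels were higher on average. Of all tested genes, 44.7% were called, 24.0% higher and 20.7% lower, under the same rule, which was an adjusted p under 0.05 in the quasi-likelihood test of edgeR with Benjamini-Hochberg adjustment over all 13132 genes. The median log2 fold change was 0.49 over the 10 members, 0.46 over the 3 protective and 0.96 over the 7 killing members, and 0.10 over all tested genes. The control and cKO libraries did not overlap in CPM for those 4 members, all higher in cKO, where 56.2% of all tested genes did not overlap and 30.7% were higher without overlap. Besides these 4 calls, 5 of the remaining 6 members had fold changes above 0 that did not pass. The median of all tested genes was itself above 0, with quartiles of -0.60 and 0.98, and Bad at 0.03 lay below that median.

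**Figure D1:**
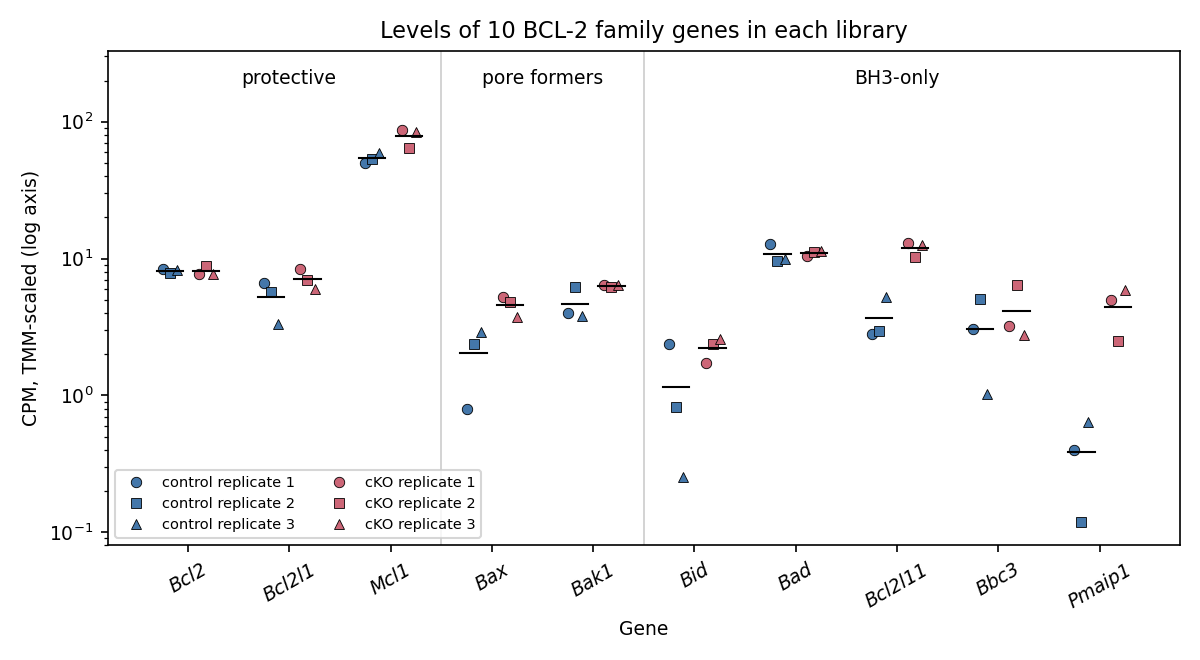
Level of each member in each library, as CPM of the TMM-scaled library size on a log axis. Points are libraries (blue, control; red, cKO; shape, replicate) and bars are group means of 3. Mcl1 lies above every other member in all 6 libraries, and Pmaip1 has the widest gap between the groups.

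Among the protective members, Mcl1 was the most abundant and rose, while Bcl2l1 had a fold change of like size that did not pass and Bcl2 lay near 0. Mcl1 (chromosome 3, 95658788 to 95663176, plus strand, GRCm38), which encodes a short-lived protein, was at 49.9, 53.6 and 59.2 CPM in control replicates 1, 2 and 3. It was at 86.8, 64.1 and 83.5 CPM in cKO replicates 1, 2 and 3. Every cKO library lay above every control library, with cKO replicate 2 the nearest to the controls. Mcl1 rose by 0.53 ± 0.16 on the log2 scale (SE, 3 libraries against 3; edgeR adjusted p = 0.0167), a 1.44-fold difference with a 95% interval on the log2 scale of 0.18 to 0.88. The call was lost without control replicate 1 (adjusted p = 0.0824), control replicate 2 (0.0638) or cKO replicate 3 (0.0742).

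Bcl2 (chromosome 1, 106538178 to 106714274, minus strand) encodes the founding member of the family, a protein of mitochondria and the endoplasmic reticulum. It was at 8.38, 7.89 and 8.26 CPM in control and at 7.65, 8.75 and 7.77 CPM in cKO. The groups overlapped, and the spread within each was narrow. Its log2 fold change of -0.02 ± 0.21 (SE) did not pass (edgeR adjusted p = 0.941), with an interval from -0.47 to 0.42. Bcl2l1 (chromosome 2, 152780668 to 152831728, minus strand) gives the long protective BCL-XL and a short killing form by splicing, which a 3' tag does not part. Its levels were 6.65, 5.66 and 3.30 CPM in control and 8.39, 7.03 and 6.02 CPM in cKO, so control replicate 1 reached into the cKO range. Its difference, 0.46 ± 0.28 on the log2 scale, did not pass (edgeR adjusted p = 0.197; interval -0.14 to 1.05).

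The pore formers did not share a call. Bax (chromosome 7, 45461697 to 45466898, minus strand), whose promoter is printed above, encodes a pore former that rests in the cytosol. It had 6, 20 and 23 counts in control replicates 1, 2 and 3 (0.798, 2.36 and 2.92 CPM) and 309, 159 and 223 in cKO replicates 1, 2 and 3 (5.20, 4.80 and 3.72 CPM). All cKO libraries lay above the controls, and control replicate 1 was far below the other controls. Bax rose by 1.16 ± 0.39 on the log2 scale (SE; edgeR adjusted p = 0.0251), a 2.24-fold difference with an interval of 0.33 to 1.998 on the log2 scale. Without control replicate 1 it was 0.80 and did not pass (adjusted p = 0.0836), and the call was also lost without cKO replicate 1 (1.06; 0.0703) and with all libraries thinned to 1 effective size (1.07; 0.0501).

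Bak1 (chromosome 17, 27019810 to 27029009, minus strand) encodes the pore former that sits in the mitochondrial membrane. It was at 3.99, 6.24 and 3.81 CPM in control and at 6.40, 6.18 and 6.40 CPM in cKO. Control replicate 2 lay within the narrow cKO range. A log2 fold change of 0.43 ± 0.26 did not pass (edgeR adjusted p = 0.203; interval -0.13 to 0.99). The opposite-strand gene Ggnbp1 overlaps the 3' end of Bak1. The sources used here do not give the strand setting of the counting, so reads of the pair may be mixed. The difference between the changes of Bax and Bak1 is taken up below as a ratio.

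Pmaip1 and Bcl2l11 had the largest fold changes of the 10 members. Pmaip1 (chromosome 18, 66458533 to 66465565, plus strand) encodes NOXA, a BH3-only protein that drives MCL-1 to degradation and is known as a p53 and stress target. It had 3, 1 and 5 counts in control replicates 1, 2 and 3 and 296, 83 and 352 in cKO replicates 1, 2 and 3. These are 0.399, 0.118 and 0.635 CPM in control, about the level of 0.353 to 0.399 CPM that a count of 0 allows there (3 counts), and 4.99, 2.50 and 5.87 CPM in cKO. The groups were far apart, and cKO replicate 2 was the lowest of its group. Pmaip1 rose by 3.55 ± 0.56 on the log2 scale (SE; edgeR adjusted p = 0.000118), and its size is uncertain. Summed counts of 9 and 731 gave a ratio of CPM of 12.7, with an exact 95% interval of 6.66 to 27.9 that covers counting error only. Leaving out 1 library at a time gave log2 fold changes of 3.10 to 4.14, all past the threshold.

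Bcl2l11 (chromosome 2, 128126038 to 128162547, plus strand), printed above with its FOXO match, encodes BIM, which is known to respond to lost growth factor and to stress of the endoplasmic reticulum. It had 21, 25 and 41 counts in control (2.79, 2.95 and 5.21 CPM) and 777, 342 and 747 in cKO (13.1, 10.3 and 12.5 CPM). The lowest cKO library stood well above the highest control library. Bcl2l11 rose by 1.71 ± 0.27 on the log2 scale (SE; edgeR adjusted p = 0.000111), a 3.28-fold difference with an interval of 1.15 to 2.28. It was 1.56 to 2.06 with 1 library left out at a time, and passed in each case. Several splice forms of BIM share a 3' end and were not parted.

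The other BH3-only members did not pass. Bad (chromosome 19, 6941861 to 6951899, plus strand), whose protein is held inactive by phosphorylation in the presence of growth factor, was at 12.8, 9.54 and 9.91 CPM in control and 10.4, 11.2 and 11.3 CPM in cKO. The groups overlapped, with a log2 fold change of 0.03 ± 0.20 (edgeR adjusted p = 0.903; interval -0.38 to 0.45). Bid (chromosome 6, 120891930 to 120916853, minus strand), which links death receptors to mitochondria once cleaved by caspase-8, was counted only 18, 7 and 2 times in control and 103, 79 and 154 times in cKO. Its levels spread from 0.254 to 2.39 CPM in control and from 1.73 to 2.57 CPM in cKO. Bid's log2 fold change of 0.96 ± 0.57 did not pass (edgeR adjusted p = 0.186; interval -0.25 to 2.17), but was 2.02 and passed without control replicate 1 (adjusted p = 0.0218). The 3' end of Bid overlaps that of Bcl2l13 on the opposite strand, so their reads may be mixed. Bbc3 (chromosome 7, 16308393 to 16318205, plus strand), the gene of the p53 target PUMA, was counted 23, 43 and 8 times in control and 190, 211 and 167 times in cKO. Its levels of 3.06, 5.07 and 1.02 CPM and 3.20, 6.36 and 2.79 CPM overlapped widely, and the log2 fold change was 0.41 ± 0.48 (edgeR adjusted p = 0.511; interval -0.61 to 1.44). Without cKO replicate 2 it was -0.02.

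**Figure D2:**
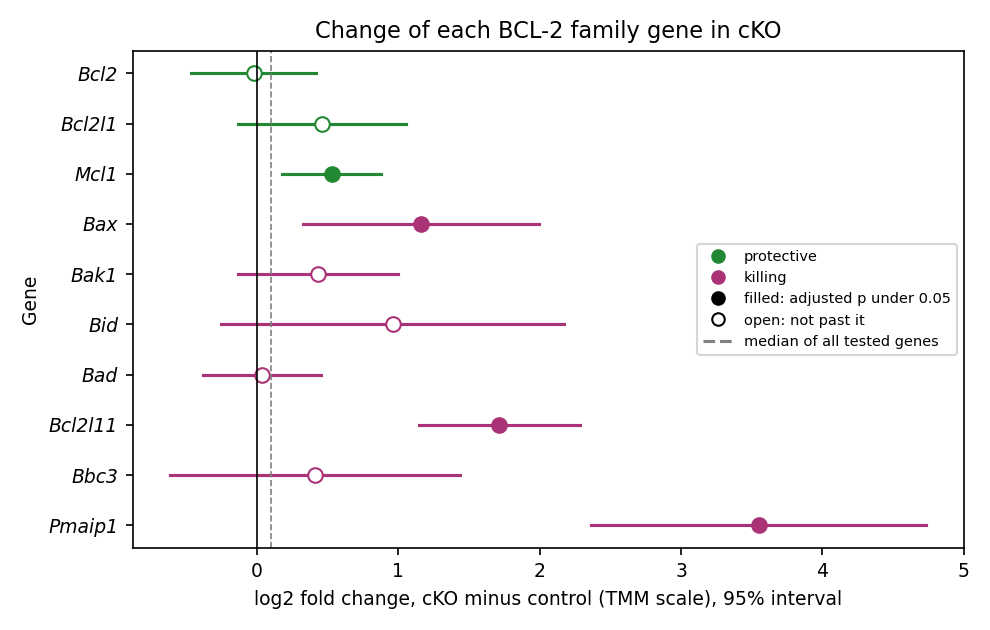
Log2 fold change of each member, cKO minus control on the TMM scale, with the 95% interval of the edgeR fit. Filled points passed an adjusted p of 0.05, and the dashed line is the median of all tested genes at 0.10. The 4 filled points lie at 0.53 (Mcl1), 1.16 (Bax), 1.71 (Bcl2l11) and 3.55 (Pmaip1), and the intervals of the 6 open points include 0.

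The order of levels within the family differed between the groups below its top. In control the order by mean CPM was Mcl1 (54.2), Bad (10.7), Bcl2 (8.18), Bcl2l1 (5.20), Bak1 (4.68), Bcl2l11 (3.65), Bbc3 (3.05), Bax (2.03), Bid (1.16) and Pmaip1 (0.384). Ranges over the 3 control libraries parted Mcl1 from Bad, Bad from Bcl2 and Bcl2 from Bcl2l1, and neighbours further down overlapped. In cKO the order was Mcl1 (78.1), Bcl2l11 (12.0), Bad (11.0), Bcl2 (8.06), Bcl2l1 (7.15), Bak1 (6.33), Bax (4.57), Pmaip1 (4.45), Bbc3 (4.12) and Bid (2.23). There Bcl2l11 overlapped with Bad, Bcl2 with Bcl2l1, Bcl2l1 with Bak1, Bax with Pmaip1, and Pmaip1 with Bbc3. BIM transcripts thus stood in the sixth place of control and in the second place, beside Bad, in cKO.

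Shares of the family's own counts do not depend on any scaling. Mcl1 alone made up 54.7%, 56.9% and 62.6% of family counts in control replicates 1, 2 and 3 and 58.7%, 51.9% and 58.6% in cKO replicates 1, 2 and 3. The 3 protective members together held 71.2% (exact Clopper-Pearson 95% interval 67.7 to 74.6), 71.2% (68.0 to 74.4) and 74.9% (71.6 to 77.9) in control, and 69.5% (68.6 to 70.5), 64.6% (63.1 to 66.1) and 68.3% (67.3 to 69.3) in cKO. They averaged 72.5% ± 2.09 in control and 67.5% ± 2.55 in cKO (SD, n = 3 each), and the groups did not overlap. Of the difference of -4.97 percentage points, Bcl2 made up -2.87, Mcl1 -1.70 and Bcl2l1 -0.402, and the groups overlapped for Mcl1 and Bcl2l1. Among single members, the shares of Bcl2 (8.77% ± 0.412 to 5.90% ± 1.03) and Bad (11.5% ± 2.15 to 8.02% ± 0.987) were lower in cKO. Those of Bcl2l11 (3.90% ± 1.39 to 8.65% ± 0.264) and Pmaip1 (0.412% ± 0.274 to 3.17% ± 1.06) were higher, and the groups did not overlap for these 4 (SD, n = 3 each). Shares sum to a whole, so a fall of one follows in part from a rise of another.

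Protective and killing members were also weighed against each other gene by gene. The balance, the mean log2 CPM of the 3 protective members minus that of the 7 killing members, was 2.56, 2.53 and 2.53 in control replicates 1, 2 and 3. It was 1.71, 1.54 and 1.52 in cKO replicates 1, 2 and 3. All cKO libraries lay below all control libraries, by 0.95 on average (2.54 ± 0.0151 against 1.59 ± 0.105, SD, n = 3 each). No p is given for a score over chosen members. Pmaip1 carries much of this gap, since without it the difference was -0.59, and with each side summed in CPM, where Mcl1 dominates, it was -0.34. With other protective and killing relatives added it was -0.25. The direction was the same in each of these, and the size was not.

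Ratios between pairs of members within a library were compared in 5 pairs. Counts of Bcl2l11 per count of Mcl1, a killer and a protector that binds it, were 0.0560, 0.0549 and 0.0880 in control and 0.151, 0.161 and 0.149 in cKO. The ratio was 2.34-fold higher in cKO without overlap. Bax per Bcl2, a ratio often used for the tendency to apoptosis, was 0.0952, 0.299 and 0.354 in control and 0.681, 0.548 and 0.479 in cKO, 2.52-fold higher without overlap. For both pairs the exact 2-sided permutation p was 0.1, the smallest that 3 libraries against 3 can give, and 0.25 after Benjamini-Hochberg adjustment over the 5 pairs. Without control replicate 1 the log2 difference of Bax per Bcl2 was 0.77 in place of 1.34. Bax per Bcl2l1 (0.120, 0.417 and 0.885 against 0.620, 0.682 and 0.618; exact permutation p = 0.4, adjusted 0.5) and Bax per Bak1 (0.200, 0.377 and 0.767 against 0.813, 0.776 and 0.581; exact permutation p = 0.2, adjusted 0.333) overlapped between the groups. Mcl1 per Bcl2l1 was 7.50, 9.48 and 17.9 in control and 10.3, 9.12 and 13.9 in cKO (exact permutation p = 1), a log2 difference of 0.03.

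**Figure D3:**
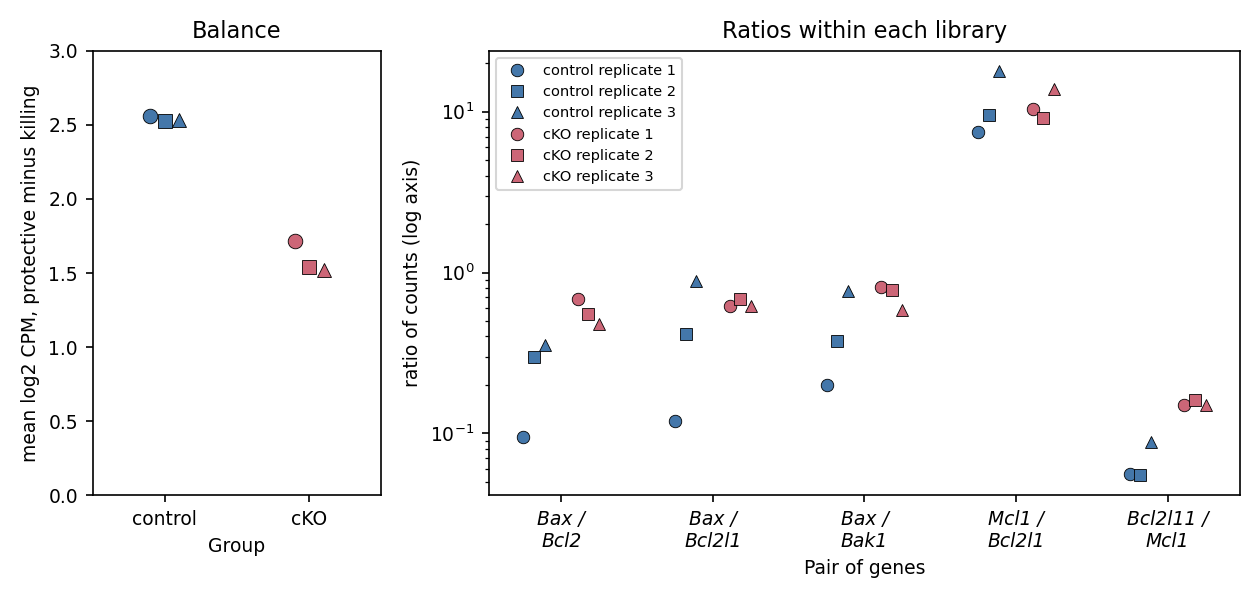
Left, balance of protective over killing members in each library, as a difference of mean log2 CPM. Right, ratios of counts for 5 pairs of members on a log axis, by library. The cKO libraries lie below the controls for the balance (1.52 to 1.71 against 2.53 to 2.56) and above them for Bax per Bcl2 and Bcl2l11 per Mcl1, and the other 3 pairs overlap.

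Patterns over the 6 libraries were compared by the root mean square difference of log2 CPM after centring each gene. Among members, Bcl2 and Bad were the most alike at 0.13. Of all tested genes with a full name, Cdip1 (0.0249), Phldb1 (0.0393) and Macf1 (0.0546) were nearest to Mcl1. Usp37 (0.155), Fut2 (0.157) and Fam219b (0.192) were nearest to Bax. These are descriptions over 6 libraries in 2 groups, in which any gene with a like fold change comes out near.

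Other members of the family moved in both directions. For this and the following lists, the shares over all tested genes were 24.0% higher and 20.7% lower. Of 6 further protective genes, 4 were tested, 3 rose and 1 fell. Those that rose are the near-identical copies Bcl2a1a, Bcl2a1b and Bcl2a1d, which encode A1, a protective protein known from leukocytes. Bcl2a1d was counted 20, 21 and 12 times in control and 804, 275 and 892 times in cKO, a log2 fold change of 2.47 ± 0.31 (SE; edgeR adjusted p = 1.72e-05). Bcl2a1a (2.35 ± 0.41) and Bcl2a1b (2.10 ± 0.36) were alike, and the division of reads among the copies is uncertain. Bcl2l2, which encodes the protective BCL-W, fell by 2.14 ± 0.36 on the log2 scale (edgeR adjusted p = 0.000195), from raw counts of 48, 51 and 41 in control and 76, 27 and 110 in cKO. Bcl2a1c and Bcl2l10 had too few counts to be tested. Among 4 further killing genes, Bok, a relative of the pore formers, fell (-1.04 ± 0.24; adjusted p = 0.00258), from 10.3 ± 0.449 to 5.05 ± 1.28 CPM (SD, n = 3 each). Bmf did not pass (-0.11 ± 1.04), with counts of 0, 0 and 17 in control replicates 1, 2 and 3 and 61, 13 and 33 in cKO replicates 1, 2 and 3, and it passed without control replicate 3 (edgeR adjusted p = 0.0262). Hrk and Bik were not tested. Of 5 tested distant relatives, Bnip3, a mitophagy receptor induced by low oxygen, fell (-0.77 ± 0.25; adjusted p = 0.0196), and 0 rose. Bnip3 lost its call without control replicate 3 (adjusted p = 0.147).

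At the pore and downstream of it, the adaptor gene rose while genes of several mitochondrial proteins fell. Apaf1, the scaffold on which cytochrome c builds the caspase-activating apoptosome, was counted 5, 6 and 10 times in control and 319, 111 and 208 times in cKO. It rose by 2.21 ± 0.42 on the log2 scale (SE; edgeR adjusted p = 0.000658). Of the 9 genes of release and apoptosome, 1 rose and 4 fell, with a median of -0.40. Vdac2, a channel of the outer membrane that binds BAK, fell by 1.20 ± 0.15 (adjusted p = 1.49e-05), from 72.7 ± 4.01 to 31.5 ± 1.77 CPM (SD, n = 3 each). Cycs, cytochrome c itself, fell by 0.81 ± 0.17, and Aifm1, a flavoprotein of the space between the membranes, by 0.94 ± 0.25. The protease gene Htra2, named after its value was seen, was the remaining call (-0.62 ± 0.23; adjusted p = 0.0375). That call was lost without control replicate 2 (adjusted p = 0.173), control replicate 3 (0.0816) or cKO replicate 2 (0.106), and in DESeq2 (0.0652). As a share of library totals these genes were higher in cKO, like most genes. The IAP proteins, of which only some restrain caspases directly, were a list of 5 with 2 that rose and 0 that fell (median 0.38). Birc3, a target of NF-kB, rose by 1.95 ± 0.36 and Birc5, the gene of survivin and also a gene of dividing cells, by 1.79 ± 0.28.

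Transcription factors known to act on the members were a list of 10, of which 8 were tested, 5 rose and 0 fell (median 0.81). Of all tested genes, 24.0% rose and 20.7% fell. Ddit3, the gene of CHOP, which acts on Bcl2l11 in stress of the endoplasmic reticulum, was counted 203, 172 and 143 times in control and 4174, 3741 and 5597 times in cKO. Ddit3 rose by 2.08 ± 0.21 on the log2 scale (SE; edgeR adjusted p = 2.52e-06), from 21.8 ± 4.61 to 92.2 ± 21.3 CPM (SD, n = 3 each). Trp53, the gene of p53, which is known to act on Bax, Bbc3 and Pmaip1, was counted 9, 8 and 9 times in control and 228, 106 and 255 times in cKO. It rose by 1.79 ± 0.38 (adjusted p = 0.00138). Stat3 (0.79 ± 0.18), a known activator of Mcl1 and Bcl2l1, and Stat5a (1.22 ± 0.35) rose as well. Myc (0.82 ± 0.31; adjusted p = 0.0421), named after its value was seen, was the remaining call, and it was lost without control replicate 1 (adjusted p = 0.159), control replicate 3 (0.170) or cKO replicate 3 (0.141). Annotated genes of the opposite strand cover the 3' ends of Ddit3, Stat3 and Stat5a, and of Bcl2a1d, Bnip3, Vdac2 and Htra2 among the genes named before, so their counts may hold reads of a neighbour. Stat3 and Stat5a are such neighbours of each other, so their calls may share reads. Foxo1, a factor that can induce Bcl2l11, did not pass (0.04 ± 0.20), and Foxo3 was not tested for want of counts.

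Genes of the kinases and partners that act on the proteins went both ways, with 2 of 13 higher and 6 lower (median -0.00418). Akt1, whose kinase phosphorylates BAD, fell by 1.76 ± 0.15 (edgeR adjusted p = 9.31e-07), from 132 ± 8.28 to 39.0 ± 1.57 CPM (SD, n = 3 each). Pim3 (-1.75 ± 0.23) fell and Pim1 (2.22 ± 0.20) rose, and both encode kinases that also phosphorylate BAD. Ywhab, a 14-3-3 protein that can hold phosphorylated BAD, rose by 0.72 ± 0.15. Of the other 14-3-3 genes on the list, both named after their values were seen, Ywhae fell by 0.59 ± 0.15 (edgeR adjusted p = 0.00564), from 154 ± 7.65 to 103 ± 5.03 CPM (SD, n = 3 each), and Ywhaz did not pass (0.14 ± 0.15). Over these 7 lists, 13 genes rose and 13 fell of 46 tested, beside 24.0% and 20.7% of all tested genes.

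**Figure D4:**
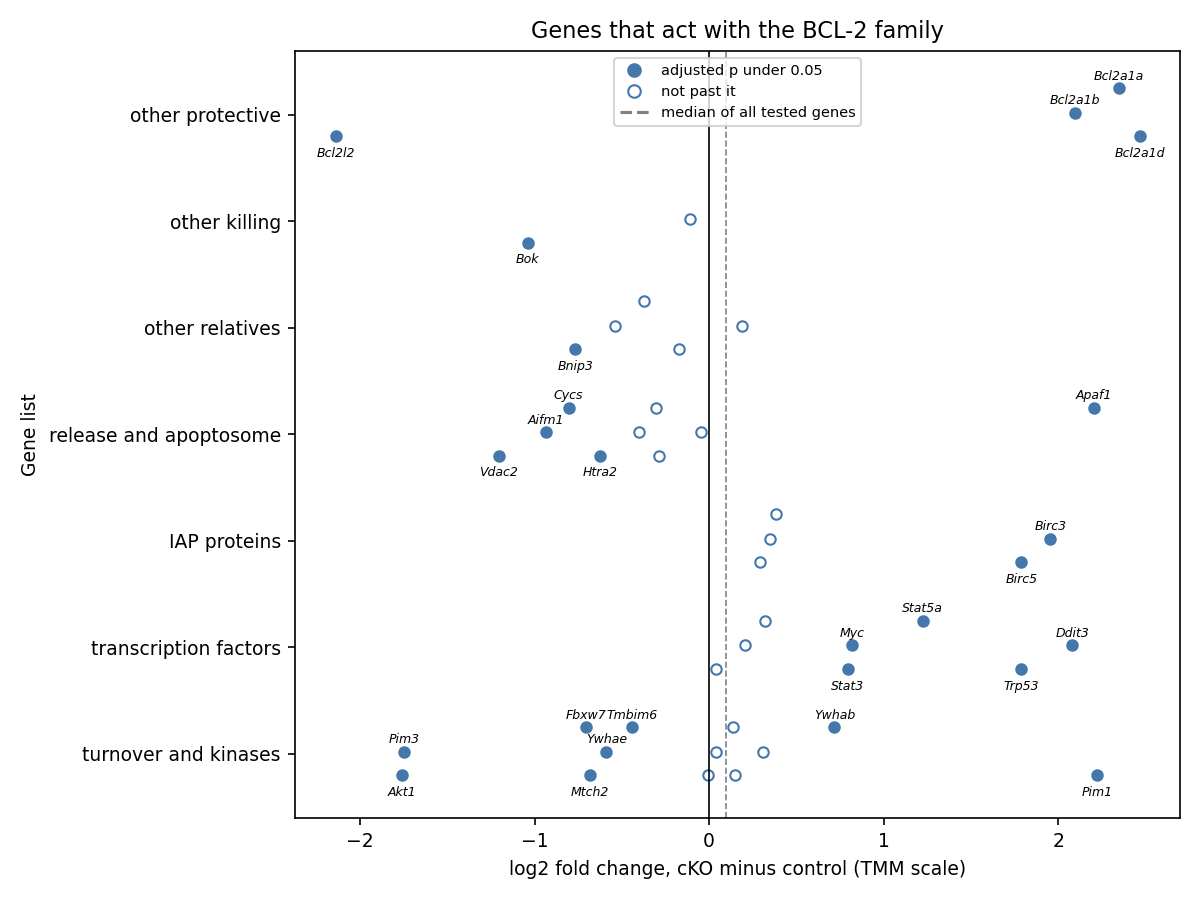
Log2 fold change, cKO minus control on the TMM scale, of the tested genes of 7 lists around the BCL-2 family. Filled and labelled points passed an adjusted p of 0.05 and open points did not. The 3 Bcl2a1 copies, Apaf1, Ddit3 and Pim1 lie above 2, and Bcl2l2 lies below -2.

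The make-up of the preparations moved with the groups. In bulk libraries fewer cells of a type and less RNA per cell cannot be told apart. The 5 acinar markers all fell, and their summed level went from 419722 to 493881 CPM in control to 11380, 67226 and 18125 CPM in cKO replicates 1, 2 and 3. All 7 markers of myeloid leukocytes rose, from a sum of 68.2 to 85.0 CPM in control to 424, 191 and 341 CPM in cKO replicates 1, 2 and 3. All 6 fibroblast markers rose, from 720 to 813 CPM in control to 5065, 3549 and 4680 CPM in cKO. Mcl1, Bcl2l11, Pmaip1 and the Bcl2a1 copies were lowest among the cKO libraries in cKO replicate 2, as these 2 lists were, whereas Bax was lowest in cKO replicate 3. Of 3 tested duct markers 2 rose and 1 fell, of 4 endothelial markers 0 rose and 2 fell (4 at an unadjusted p under 0.05), and of 4 islet and 3 tested lymphocyte markers 0 passed in either direction in edgeR or DESeq2, with 1 lymphocyte marker higher at an unadjusted p under 0.05. No marker was at 0 in all libraries. The part of other cell types in the changes of the members was not tested.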

How the data were processed

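Raw counts by gene symbol, as the authors deposited them for each library, came from QuantSeq 3' libraries made with 500 ng of total RNA, per the labels' protocols. The submitters' processing notes name Bowtie2 and edgeR, and mm10 and GRCm38 as builds, with no role. The sources used here do not give the counting tool, annotation, strand setting or filters. Counts were tested with glmQLFit (robust) and glmQLFTest of edgeR 4.0.16 in R 4.3.3, on rows kept by filterByExpr (minimum count 10, minimum total 15), with TMM factors and Benjamini-Hochberg adjustment over all tested rows. That filter used library totals, on which most genes were higher in cKO, so a gene could pass through the cKO libraries. Trp53 and Apaf1 were among the pathway calls that did. The standard error is the log2 fold change divided by the square root of F. The balance used log2 CPM with a prior count of 2 and ratios an offset of 0.5. The 95% intervals of log2 fold changes come from the edgeR fit and include the spread between libraries. Exact intervals and floors (3 counts) cover counting error only, and may understate it, since no molecular identifiers are described. The fit was tested on simulated data in which far fewer genes changed than were called here. The scaling was not tested under so broad a change. Alternatives were DESeq2 1.42.0, other scalings and filters, a replicate block, thinning and each library left out. Coordinates are from GENCODE M21 and promoters from RefSeq. The members and gene lists were chosen with earlier results of these data known. Named genes were all members and, of each list around them, up to 4 calls with the smallest p. Htra2, Myc, Ywhae and genes that did not pass or were not tested were added after their values were seen.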

Additional observations from a re-analysis of the deposited data

How the results depend on the processing

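The same 4 members were called under DESeq2, DESeq2 size factors, upper-quartile scaling, no filter and the replicate block. Thinned libraries called 3, and 3 to 4 were called with 1 library left out. Without control replicate 1 only 2 of the 4 were among these 3, as Mcl1 and Bax lost their calls and Bid gained one. Library totals called all 10 higher. A minimum of 10 CPM in 3 libraries called 2, since it tests fewer genes and left Bax and Pmaip1 untested. Bcl2l11, still called there, met that minimum only in the cKO libraries (13.1, 10.3 and 12.5 CPM, against 2.79, 2.95 and 5.21 in control). That setting is therefore no separate check of its call. The 26 calls among the 46 pathway genes became 46 on library totals, with 46 higher and 0 lower, and 7 lower at 10 CPM. They were 24 to 26 with 1 library left out, 12 to 14 of them higher and 11 to 12 lower. Library totals reversed Bcl2 (3.23), Bnip3 (2.53), Akt1 (1.502), Pim3 (1.47), Vdac2 (2.05), Cycs (2.46), Aifm1 (2.27), Htra2 (2.73), Bmf (3.20), Bok (2.16) and Bcl2l2 (1.21), as that scale moves every gene up. Bcl2 was 0.0191 with no filter and -0.0699 to 0.0179 with 1 library left out, Bad -0.0408 to 0.178, Foxo1 -0.0734 to 0.163 (-0.0364 in thinned libraries), Bmf -0.709 to 7.49 (controls all at 0 in the last, so no bound; 0.867 with the replicate block) and Bbc3 -0.0196 to 1.02. The balance differed by -0.95, and by -0.65 without Pmaip1 and Bbc3, -0.59 without Pmaip1 (added after the data were seen), -0.25 with the wider family, -0.34 on summed CPM, -0.80 in thinned libraries and -0.99 to -0.90 with 1 library left out. The log2 ratio of Mcl1 to Bcl2l1 ran from -0.24 to 0.39 with 1 library left out. Those of Bax to Bcl2, Bax to Bcl2l1, Bax to Bak1 and Bcl2l11 to Mcl1 ran from 0.77 to 1.68, 0.06 to 1.46, 0.40 to 1.33 and 1.11 to 1.44. Except where the setting itself shows it, the cause was not tested. Same-numbered libraries did not deviate together (r = 0.01, -0.03 and -0.01 across genes for numbers 1, 2 and 3). Deviations from means of only 3 libraries per group cannot decide whether the samples are paired, and the labels state no pairing. With the replicate block Pmaip1 was 3.57, Bcl2l11 1.74, Bax 1.22 and Mcl1 0.52, and 25 pathway genes were called. Depth limits Pmaip1, Bid and Bax most, at 9, 27 and 49 counts over all control libraries.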
